A study of Caenorhabditis elegans with 6 samples.

Results

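A group of 3 genes whose names place them in the handling of acyl-CoA, acbp-8 (Y71H2B.1), acds-10 (K09H11.1) and acs-25 (ZK112.6), was followed in touch receptor cells of Caenorhabditis elegans that expressed expanded or normal huntingtin. The genes were found by the symbol of their probe, 1 probe each, among 22562 probes that carry 7477 named genes. The group was chosen on the same ratios (128Q over 19Q, and 19Q over GFP only) that are given here, so the values of the 3 genes are a description in both comparisons. The fit over all features included them, and its result for them is given only as a count, from which nothing is read.

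The cells came from transgenic nematodes carrying, under the mec-3 promoter, an N-terminal huntingtin fragment with an expanded (128Q) or a normal (19Q) polyglutamine tract fused to GFP, or GFP alone. Embryonic cells were dissociated, cultured overnight and sorted for GFP, so that every group shares the reporter, the promoter, the culture and the sort. The cells are embryonic, and they were collected wherever the mec-3 promoter drives GFP, which is active in touch receptor neurons and some other neurons. On 3 sets of 2-colour arrays 128Q cells were compared with 19Q cells, and on 3 others 19Q cells with GFP-only cells. Each set is labelled as a biological replicate. The methods speak of 3 independent experiments and say no more on separate cultures or pooled animals. The p values below therefore measure the spread between these sets, which may be technical. That spread was estimated from the arrays of both comparisons together, whereas each SD covers only the arrays of its own comparison. A p for 128Q over 19Q thus also carries the spread of 19Q over GFP only, and the reverse.

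Acyl-CoA is the activated form of a fatty acid, in which the acid is joined to coenzyme A. Acyl-CoA synthetases, the family of acs-25, make it from free fatty acid at the cost of ATP. Acyl-CoA-binding proteins, the family of acbp-8, hold it in solution and carry it between membranes and enzymes. Acyl-CoA dehydrogenases, the family whose name acds-10 bears, take the first step of mitochondrial β-oxidation and hand the electrons to the respiratory chain. No source used here names the fatty acids on which these particular gene products act. In the RefSeq gene table of assembly WBcel235, acbp-8 and acs-25 lie on chromosome III and acds-10 on chromosome V.

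The values are the authors' deposited scores, read here as log ratios of the cells named first over the cells named second. Their log base is not stated, so they are given in deposited units and never as folds. Each array is centred near a mean of 0, but the width differs between arrays. With all probes kept, every array of 19Q over GFP only had an SD of 1.0. For 128Q over 19Q the corresponding SDs were 1.0, 0.783 and 0.81 (replicates 1, 2 and 3). Whether some arrays were scaled to a common width is not stated in the sources used here. Means, SDs, distances and sums taken across arrays may therefore mix units. Leaving aside 244 unnamed probes that lie far below 0 on 3 of the 6 arrays, the SD over probes was 0.786 to 0.815 in 128Q over 19Q. For 19Q over GFP only the SD was 0.676, 0.786 and 1.00 (replicates 1, 2 and 3). For this reason the place of a gene among all features of an array is given beside its log ratio. Without the low probes the replicates of 128Q over 19Q correlated across probes, which are not independent, with r between 0.680 and 0.761. Replicates 1 and 2 of 19Q over GFP only correlated with r = 0.525, and the r of replicate 3 with each of these was 0.210 and 0.045. Of 22562 probes 14844 carry no name in the annotation used here, which does not mean that they carry no gene. None of the 28 marker genes listed for touch receptor neurons and other cell types is among the named ones, so the cell type was not checked, and a part of cell type in the values below was not tested. Labels give Cy5 to the cells named first on every array, so dye and group cannot be told apart unless the deposited sets merge the dye-swapped arrays that the supplementary methods describe.

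The binding protein gene acbp-8 was lower in 128Q than in 19Q cells on each array, with log ratios of -0.716, -0.627 and -1.058 in replicates 1, 2 and 3. All 3 values lie in the lower part of their array, where 14.0%, 15.4% and 8.6% of features were lower still. The mean was -0.80 ± 0.23 (SD, n = 3), and 11.5% of 22033 features had a lower mean. In RNA of a sorted population, fewer cells with a transcript and less of it per cell cannot be told apart. In 19Q over GFP-only cells acbp-8 had log ratios of -0.213, 0.476 and 0.622, with a mean of 0.30 ± 0.45 (SD, n = 3). Replicate 1 was below 0 and the other 2 above it, so that the spread exceeded the mean.

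The dehydrogenase gene acds-10 gave a similar picture, and in 128Q over 19Q its log ratios were -0.377, -0.735 and -1.077 (replicates 1, 2 and 3). The lowest 23.8%, 13.1% and 8.4% of features lay below it on these arrays, and its mean was -0.73 ± 0.35 (SD, n = 3). Compared between 19Q and GFP-only cells, its log ratios were 0.646, -0.036 and 0.366, with a mean of 0.33 ± 0.34 (SD, n = 3). Here replicate 2 was close to 0 and the others above it, whereas for acbp-8 replicate 1 was the low one. The 2 comparisons share the 19Q cells, which are the denominator of one ratio and the numerator of the other.

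The synthetase gene acs-25 did not share this pattern. Its log ratios in 128Q over 19Q were 0.263, -1.231 and -0.163 in replicates 1, 2 and 3. Replicate 2 was below all but 5.6% of features, and replicate 1 was above 64.4% of them. The mean of -0.38 ± 0.77 (SD, n = 3) was smaller than its spread, and the SD was larger than that of 92.2% of features. Without replicate 2 the mean was 0.05. In 19Q over GFP-only cells its log ratios were -1.207, -0.198 and 0.235, with a mean of -0.39 ± 0.74 (SD, n = 3). Here replicate 1 was the one far from the others, below all but 4.8% of features of its array, and without it the mean was 0.02. A single array thus set the sign of acs-25 in each comparison.

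**Figure D1:**
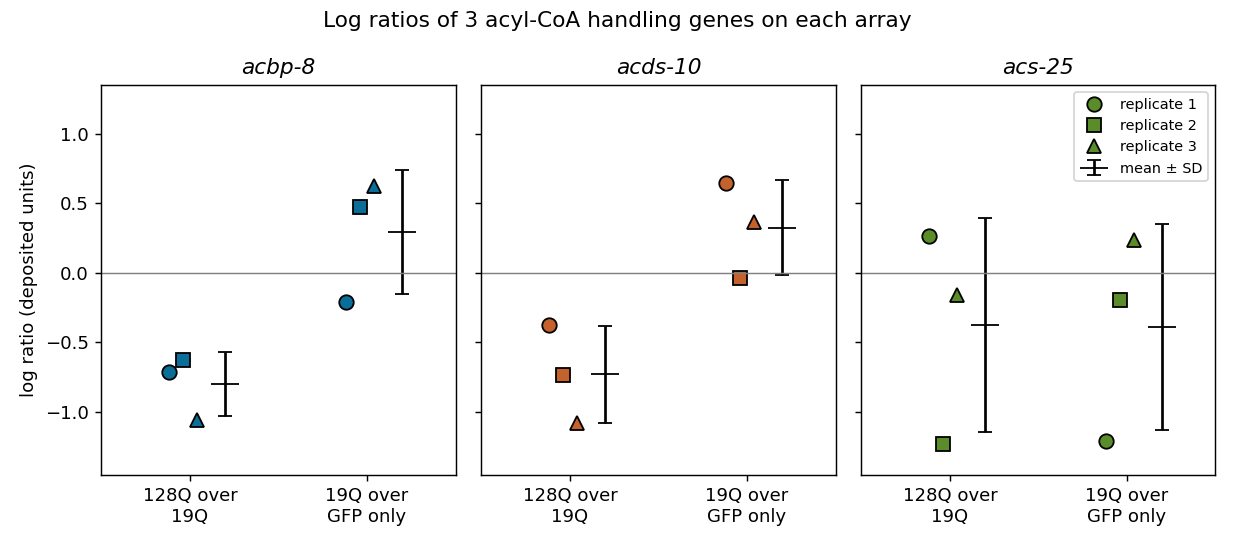
Log ratio in deposited units of acbp-8, acds-10 and acs-25 (1 panel each) in 128Q over 19Q (left) and 19Q over GFP only (right), with 1 symbol per replicate and the mean ± SD (n = 3) beside them. The values of acbp-8 (-1.058 to -0.627) and acds-10 (-1.077 to -0.377) in 128Q over 19Q are all below 0, whereas acs-25 has replicates on both sides of 0 in both comparisons.

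**Figure D2:**
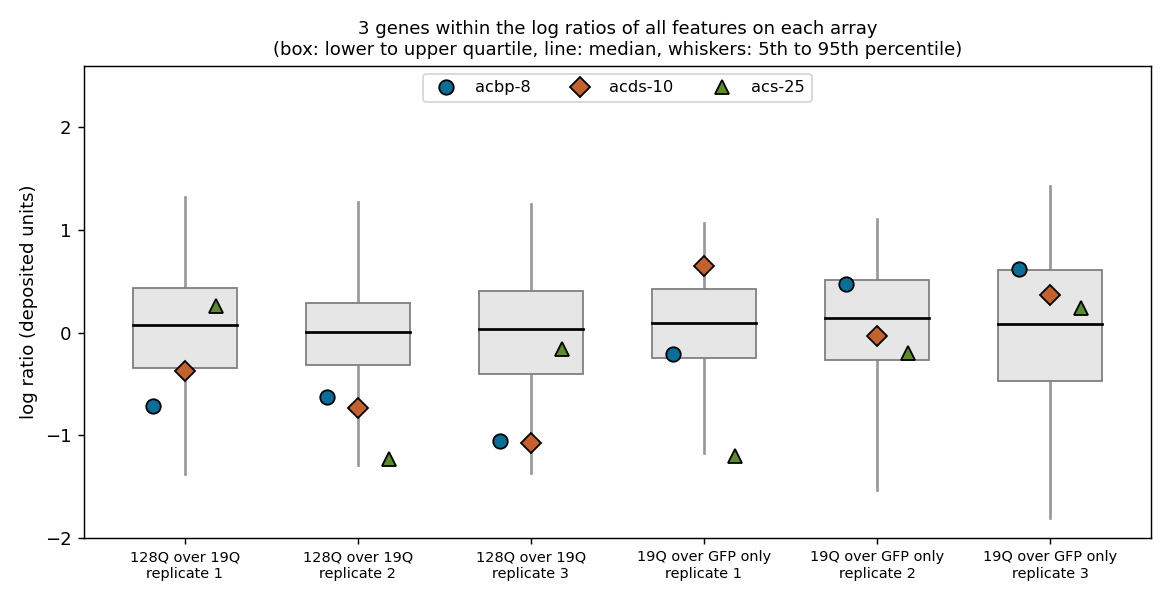
Log ratios of the 3 genes on each of the 6 arrays, set over all features of that array (box from the lower to the upper quartile, line at the median, whiskers at the 5th and 95th percentile). In 128Q over 19Q acbp-8 and acds-10 lie between the whisker ends and below the box, and acs-25 is inside the box on replicates 1 and 3. On replicate 1 of 19Q over GFP only acs-25 is below the whisker (percentile 4.8).

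None of the 3 genes passed an adjusted p under 0.01 in limma (the false discovery rate used in the study), where 2.80% of features were called in 128Q over 19Q and 0% in 19Q over GFP only. Log ratios below 0 on all 3 arrays of 128Q over 19Q were seen for 2 of 3 and for 25.7% of features, and above 0 on all 3 for 0 of 3 and for 30.9%. In 19Q over GFP only 0 of 3 were below 0 on all 3 arrays, beside 13.3% of features, and 0 of 3 above it, beside 27.3%. Because the genes were picked with these ratios known, nothing is read from the counts. A mean in 128Q over 19Q lower than that of acbp-8 was seen for 11.5% of features, and lower than that of acds-10 for 12.9%.

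Through 19Q, the sum of both means sets 128Q against GFP-only cells. It was -0.505 ± 0.289 for acbp-8, -0.404 ± 0.283 for acds-10 and -0.767 ± 0.616 for acs-25 (SE from the SDs of 3 arrays each), while the median over 21642 features was 0.10. Of these features 23.1%, 26.5% and 16.2% had a lower sum than acbp-8, acds-10 and acs-25. Of the 3 genes acs-25 had the lowest sum, although its mean in 128Q over 19Q was the nearest to 0, and the sums lie within the error of acs-25 of each other.

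**Figure D3:**
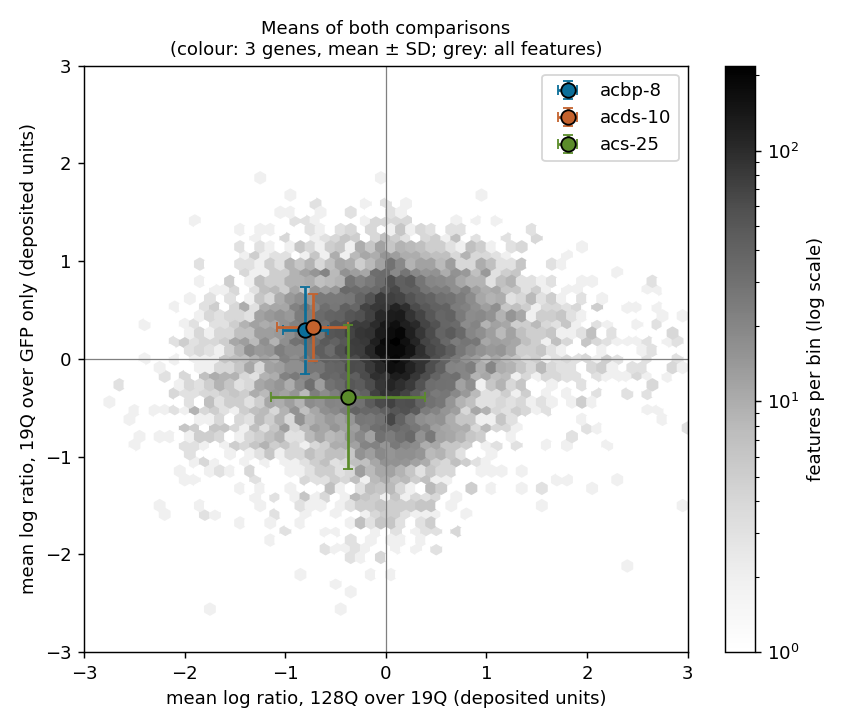
Mean log ratio in deposited units of 128Q over 19Q (horizontal) and of 19Q over GFP only (vertical) for acbp-8, acds-10 and acs-25 (coloured, mean ± SD, n = 3) over the density of all features with both means (grey; 329 features lie outside the axes and 21313 within). Both acbp-8 (-0.80, 0.30) and acds-10 (-0.73, 0.33) lie at the upper left, and acs-25 (-0.38, -0.39) at the lower left with error bars that cross 0 in both directions.

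Over the 6 arrays together, acbp-8 and acds-10 were 1.09 deposited units apart (Euclidean distance), against a median distance of 2.14 from acbp-8 to 7310 named genes. By this measure acds-10 was the 286th nearest gene to acbp-8, with 3.9% of named genes nearer. Because acbp-8, acds-10 and acs-25 were chosen on these same ratios, nothing is read from the distances and ranks between them. The distances from acs-25 were 1.93 to acbp-8 and 2.23 to acds-10, against its median distance of 2.33, and 19.8% and 43.5% of named genes were nearer to it. The genes most like acbp-8 were Y81G3A.4 at a distance of 0.344, F59B2.8 at 0.441 and Y53G8AM.7 at 0.441, with means in 128Q over 19Q of -0.83, -0.69 and -0.66. Those most like acds-10 were C33G3.4 at 0.372, F41E7.9 at 0.378 and C48B4.13 at 0.443, with means of -0.77, -0.64 and -0.76. For acs-25 the nearest genes were farther away. They were the neuropeptide-like protein gene nlp-81 at 0.812, ilkp-1 at 0.866 and R08C7.12 at 0.880, with means of -0.47, -0.43 and -0.33. The 9 genes were chosen for their likeness, so their values were not tested.

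Few other genes of the pathway carry a name in the annotation of the probes used here, and those on unnamed probes were not analysed. The gene table holds 8 genes of acyl-CoA-binding proteins, 23 acyl-CoA synthetases and 22 acyl-CoA dehydrogenases and oxidases, and of each family 1 has a named probe, which is the gene described here. Lists of the later steps of β-oxidation (18 genes), carnitine acyltransferases and carriers (12), fatty acid synthesis (22), glycerolipid acyltransferases (22), and fatty acid-binding proteins and lipases (21) have 0 named probes. Of 60 oac genes, which encode membrane proteins with an acyltransferase domain, oac-60 has one. Another 5 genes of fatty acid or coenzyme A metabolism, mcat-1, etfa-1, phyh-1, slc-25A42 and decr-1.1, were added by name after the names on the arrays had been seen.

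Of these 6 genes 0 passed an adjusted p under 0.01 in limma in either comparison, and at an unadjusted p under 0.05 in limma 1 of 6 was counted in 128Q over 19Q (mcat-1), beside 25% of all features (5517 of 22033), and 0 of 6 in 19Q over GFP only, beside 22% (4825 of 21897). In 128Q over 19Q 1 of 6 had a mean below 0 (oac-60), beside 45.6% of all features. The median of the 6 was 0.44, beside 0.045 over all features, and in 19Q over GFP only it was 0.41, beside 0.093. The gene mcat-1 is named for malonyl-CoA-acyl carrier protein transacylase, which loads the building block of fatty acid synthesis. Its log ratios in 128Q over 19Q were 1.028, 0.936 and 0.596, all above 0, with a mean of 0.85 ± 0.23 (SD, n = 3; limma adjusted p = 0.0295). In 19Q over GFP-only cells mcat-1 had 0.22 ± 0.11 (SD, n = 3; limma adjusted p = 0.488).

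The gene etfa-1 encodes the α subunit of the electron transfer flavoprotein, which accepts electrons from acyl-CoA dehydrogenases. Its log ratios were 1.129, 0.264 and 0.251 in 128Q over 19Q. All were above 0 with a mean of 0.55 ± 0.50 (SD, n = 3; limma adjusted p = 0.583), and replicate 1 was the high one. In 19Q over GFP only, etfa-1 had -0.046, -0.26 and 2.259, and replicate 3 alone put its mean of 0.65 above 0, which without it was -0.15. The gene phyh-1, named for phytanoyl-CoA hydroxylase, an enzyme of peroxisomal breakdown of branched fatty acids, had a mean of 0.51 ± 0.25 (SD, n = 3) in 128Q over 19Q and of 0.61 ± 0.64 (SD, n = 3) in 19Q over GFP only. The adjusted p values of phyh-1 from limma were 0.299 and 0.237.

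The human namesake of slc-25A42 carries coenzyme A into mitochondria. In 128Q over 19Q its log ratios were -0.041, 0.623 and 0.525, with a mean of 0.37 ± 0.36 (SD, n = 3; limma adjusted p = 0.316). The gene decr-1.1, named for dienoyl-CoA reductase, which prepares unsaturated acyl-CoA for β-oxidation, had a mean of 0.26 ± 0.42 (SD, n = 3) in 128Q over 19Q and of -0.40 ± 0.17 (SD, n = 3) in 19Q over GFP only. Adjusted p values of decr-1.1 from limma were 0.539 and 0.307. The means of oac-60 were -0.12 ± 0.16 in 128Q over 19Q (SD, n = 3; limma adjusted p = 0.866) and 0.64 ± 0.79 in 19Q over GFP only (SD, n = 3; limma adjusted p = 0.254).

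The genes that lie next to acbp-8, acds-10 and acs-25 were read as well, to set the ratios of the 3 genes beside those along the chromosome. Of the 5 protein-coding genes on each side in the RefSeq order, 5 of 10 around acbp-8, 3 of 10 around acds-10 and 5 of 10 around acs-25 have a named probe. Of these 13 genes 1 rose in 128Q relative to 19Q cells and 0 fell (limma, adjusted p under 0.01), beside 2.80% of all features called in either direction. In 19Q over GFP only 0 were called, beside 0% of all features. At an unadjusted p under 0.05 in limma 4 of 13 were counted in 128Q over 19Q and 1 of 13 in 19Q over GFP only, beside the 25% and 22% of all features given above. Their median was 0.17 in 128Q over 19Q, beside 0.045 over all features, and 0.002 in 19Q over GFP only, beside 0.093.

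The gene that rose was Y71H2B.4, 3 genes from acbp-8. Its log ratios in 128Q over 19Q were 3.651, 2.447 and 2.763, above those of 98.8% to 99.8% of features on each array, with a mean of 2.95 ± 0.62 (SD, n = 3; limma adjusted p = 0.00228). When any 1 of these 3 arrays (replicate 1, 2 or 3) was left out, its mean was 2.61 to 3.21 and its adjusted p in limma 0.0190 to 0.0225, and no gene at all was then called. Between Y71H2B.4 and acbp-8 lie ppfr-4, which has no named probe, and Y71H2B.2, the direct neighbour, with -0.145, 1.028 and -0.049 and a mean of 0.28 ± 0.65 (SD, n = 3; limma adjusted p = 0.679). Of the 5 named neighbours of acbp-8, 1 had a mean below 0 in 128Q over 19Q, Y71H2AL.2 (mean -0.24), beside 45.6% of all features.

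The direct neighbour of acds-10 is pgph-1, with -0.233, -0.05 and -0.062 in 128Q over 19Q and a mean of -0.12 ± 0.10 (SD, n = 3; limma adjusted p = 0.867). The other neighbours of acds-10, K09H11.4 and C53A3.1, had means of 0.17 and 0.16, and without replicate 1 that of K09H11.4 was -0.026. For acs-25 the direct neighbour is ZK112.4, with 0.234, 0.256 and 0.667 in 128Q over 19Q and a mean of 0.39 ± 0.24 (SD, n = 3; limma adjusted p = 0.603). The low value of acs-25 on replicate 2 was not seen in ZK112.4. ZK686.2, 4 genes from acs-25, had the highest mean around it, 1.07 ± 0.42 (SD, n = 3; limma adjusted p = 0.0253), and did not pass the test. The lowest mean there was that of C18H2.5, 5 genes away, with -0.43 ± 0.17 (SD, n = 3; limma adjusted p = 0.523).

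**Figure D4:**
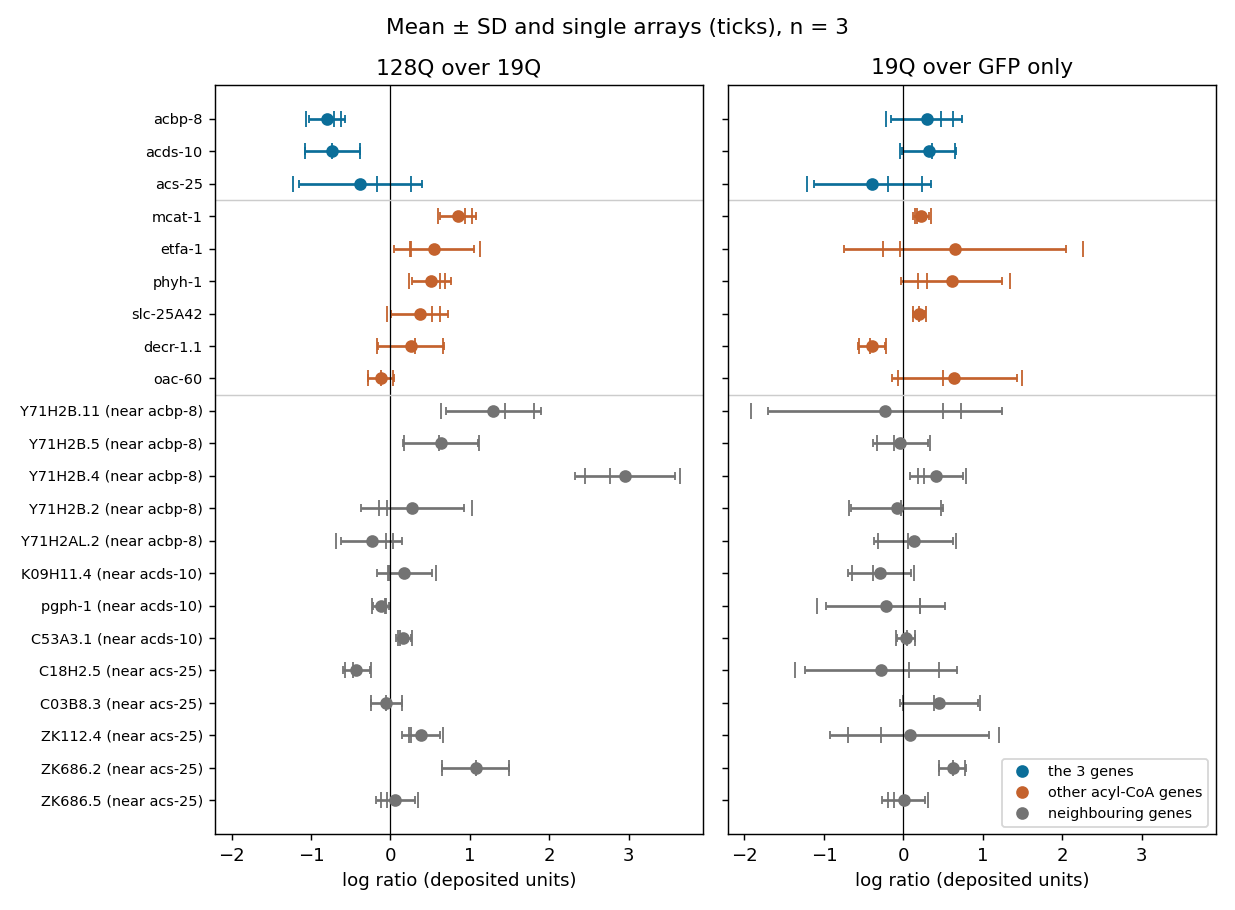
Mean log ratio ± SD (n = 3, deposited units) with single arrays as ticks, for acbp-8, acds-10 and acs-25 (blue), 6 other acyl-CoA genes (orange) and 13 neighbouring genes (grey), in 128Q over 19Q (left panel) and 19Q over GFP only (right panel). In 128Q over 19Q the 3 blue means, chosen on these ratios, are below 0, 1 of 6 orange means is below 0, and Y71H2B.4 stands apart at 2.95.

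The probes of acbp-8 and acs-25 stand next to the low unnamed probes in the numbering of the platform, 1 and 2 numbers away, and that of acds-10 stands 613 away. Other probes within 2 numbers of a low probe, 962 to 974 with a value per array, had array medians of 0.002 to 0.152, and all probes farther away of 0.006 to 0.150. Their SDs were 0.642 to 1.02 near the low probes and 0.677 to 1.00 farther away. The ranges near the low probes and farther away overlapped, and the part of the low probes in the values of acbp-8 and acs-25 was not tested.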

How the data were processed

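Touch receptor cells sorted by GFP gave RNA that the authors amplified in 1 linear round, labelled with Cy3 and Cy5 and hybridised to 2-colour Agilent arrays, which were read with GenePix software. The authors deposited 1 score per probe and array, read here as a log ratio of unstated base, whereas the design had assumed a plain log ratio. How background was corrected, signals normalized and dye swaps merged is not stated in the sources used here. Probes were named from the platform annotation (7718 of 22562), 7691 of them matched the RefSeq gene table of WBcel235, and probes of a gene were averaged (22321 features).

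All 6 arrays were fitted together in R 4.3.3 (limma 3.58.1), each comparison having its own coefficient, for features with a value on the 3 arrays of the comparison, and p values were adjusted by Benjamini and Hochberg over all features. The study's methods name VarMixt, which was not used here. The fit was tested on simulated data. The members, lists and alternatives were chosen with earlier results of these data known. The rule named the 3 members, the genes of the acyl-CoA lists up to carnitine acyltransferases that passed the test or, where none did, those with the lowest p (these lists held no further named gene), and per member the 3 nearest named genes over the 6 arrays. The other genes fall outside it. The list by annotation text was not run, because the tables used give no such text, and acyl-CoA thioesterases have 0 genes under the symbol searched. The added genes and oac-60 were chosen after the names on the arrays were seen, and neighbours given with values stand next to a member or were picked after their values were seen. Alternatives were a separate fit of each comparison, robust moderation, median centring with and without scaling, features with at least 2 of 3 values, single probes, an adjusted p under 0.05, the replicate number as a block, leaving out the low probes and leaving out each array. Precision is limited by the 3 arrays per comparison, and how far signals exceeded background is unknown.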

Additional observations from a re-analysis of the deposited data

How the results depend on the processing

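For acbp-8, acds-10 and acs-25 each mean stayed within 1 SD of the reported value under all 7 alternatives run for it. Division of each array by its SD without the low probes, 1 of these, was added after seeing the data. Leaving out 1 of 3 arrays cannot move a mean by as much as 1 SD, and single probes repeat the value of a gene with 1 probe. For those alternatives the outcome was fixed in advance, so only centring, scaling and the division could have moved a mean that far. With 1 array left out the means in 128Q over 19Q were -0.887 to -0.671 for acbp-8, -0.906 to -0.556 for acds-10 and -0.697 to 0.050 for acs-25, and in 19Q over GFP only 0.132 to 0.549, 0.165 to 0.506 and -0.703 to 0.018 in the same order. Only acs-25 changed sign among these, without replicate 2 of 128Q over 19Q and without replicate 1 of 19Q over GFP only. Of all 22033 features tested, named or not, 616 were called in 128Q over 19Q (359 higher, 257 lower). An adjusted p under 0.05 gave 2313, which is larger by construction, and leaving out 1 array gave 0 to 1472, namely 0 whichever 128Q over 19Q array was omitted, and for 19Q over GFP only 195, 347 and 1472 on omitting replicate 1, 2 and 3. A fit that took replicate numbers as a block called 204. Between same-numbered arrays the deviations had an r of 0.430, -0.130 and 0.335 (-0.0383, -0.000412 and 0.00507 once low probes were removed). Shared 19Q cells would lower this r and a shared day could raise it, so it does not tell whether same-numbered arrays share material. Y71H2B.4 kept its call with the block (adjusted p = 0.00781 from limma). In 19Q over GFP only 0 were called under every alternative run, and of the acyl-CoA lists beside the 3 members, which hold only oac-60, 0 in 128Q over 19Q. At an adjusted p under 0.05 mcat-1 and ZK686.2 pass in 128Q over 19Q. Means of uncalled genes changed sign for ZK112.4 in 19Q over GFP only (0.08 as reported), to -0.028 with centring and -0.175 with centring and scaling. With 1 array left out it was -0.488 to 0.464. Apart from acs-25, the other sign changes among the means followed were in 128Q over 19Q K09H11.4 (-0.026 to 0.275) and Y71H2B.2 (-0.097 to 0.490). In 19Q over GFP only they were Y71H2B.2 (-0.355 to 0.223), etfa-1 (-0.153 to 1.106) and pgph-1 (-0.438 to 0.208). For K09H11.4, C53A3.1, C18H2.5, Y71H2AL.2 and the genes most like acbp-8, acds-10 and acs-25, 19Q over GFP only was not followed under the alternatives. The cause of the sign changes was not tested.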
